A study of Mus musculus with 26 samples.

Results

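The genes described here are 7 integrin subunit genes, Itga1, Itga2, Itga3, Itga6, Itgb4, Itgb6 and Itgb8, out of 47730 features in a table of read counts. They were chosen by symbol as a set of integrins of epithelial cells that bind laminin or collagen, and all 7 were found by their Ensembl identifiers and all 7 passed the filter on low counts. The name of the set fits 5 of them. Itgb6 and Itgb8 encode beta chains that pair with the alpha-v chain and bind the latent form of TGF-beta, and Itga1 was read at about 1 CPM (its share of the counts of a library, scaled up) in every group. They are therefore called laminin, collagen and alpha-v integrin genes below.

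The RNA came from mammary tumours of mice and from the cell line that made them. The study asked how epithelial and mesenchymal tumour cells differ in mice with and without T cells. The line, E-A14, consists of Her2-expressing mouse mammary tumour cells, and these were implanted in the fourth mammary fat pad of FVB/N mice aged 6 to 8 weeks. Depleted mice received anti-CD4 and anti-CD8a antibodies, 100 µg of each, and control mice rat IgG2a and rat IgG2b, 100 µg of each, 2 times a week from 2 weeks before implantation until collection. Tumours were taken at their growth end-point, on day 20 from 6 depleted mice and on day 47 from 6 control mice, and cells that were alive, Her2-positive and free of CD90, CD105 and CD45 were sorted from each tumour by EpCAM into a positive and a negative fraction. That gives 4 tumour groups of 6 libraries each, and 2 libraries of E-A14 cells grown in culture complete the set of 26. All groups derive from the same line, and antibody depletion removes CD4 and CD8 T cells while other immune cells remain. Treatment and day of collection changed together, so a difference between control and depleted tumours cannot be told apart from one between day 47 and day 20.

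Depth also followed the treatment. Depleted libraries held 17559520 to 25601999 counts, control libraries 26895429 to 38740143, and the 2 cultures 27253363 and 35059744. Epcam RNA itself averaged 1183 ± 239 CPM (SD, n = 6) in control EpCAM-positive and 1.63 ± 0.546 CPM in control EpCAM-negative libraries, against 2437 ± 241 and 140 ± 83.4 CPM in the depleted fractions, so each EpCAM label matched the Epcam RNA. RNA of the Her2, CD105 and CD45 used in the sort is not given here. All 12 epithelial markers examined were detected in every group, with a summed level of 9599 to 10192 CPM in depleted and 3490 to 4880 CPM in control EpCAM-positive libraries, and of 3462 to 4932 CPM in depleted and 886 to 1433 CPM in control EpCAM-negative libraries. In EpCAM-negative cells 12 of these 12 were lower in control and 10 in depleted tumours, and their part in the integrin results was not tested. Markers of other cells that the gate could hold were present at levels that differ between groups. The 8 fibroblast markers summed to 63.4 to 221 CPM over depleted libraries and 1209 to 5042 CPM over control libraries, and the 9 macrophage markers to 92.9 to 270 CPM and 18.3 to 190 CPM. In these bulk samples fewer cells of a type and less RNA per cell cannot be told apart.

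Integrins are receptors made of 1 alpha and 1 beta chain that tie a cell to the matrix around it and signal in both directions across the membrane. In the mammary gland the laminin receptors alpha-3 beta-1 and alpha-6 beta-4 hold epithelial cells to the basement membrane, alpha-6 beta-4 through the hemidesmosome, a junction linked to keratin filaments. The collagen receptors alpha-1 beta-1 and alpha-2 beta-1 share their beta chain with alpha-3. The alpha-v beta-6 and alpha-v beta-8 integrins bind an RGD sequence in the latency peptide of TGF-beta and free or expose the active cytokine, and alpha-v beta-6 is best known from epithelia.

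Levels are given as CPM on library sizes scaled by the TMM method, and differences as log2 fold changes ± SE from edgeR's quasi-likelihood test over 16637 features, with p-values adjusted by the Benjamini-Hochberg method and a threshold of 0.05. Both fractions of a treatment came from the same tumours, and the comparisons share groups, so they are not independent of each other. The fit took the fractions as unpaired, since the labels do not say which libraries share a tumour.

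Most of the 7 genes were lower in EpCAM-negative than in EpCAM-positive cells. In control tumours 4 of 7 were lower (Itga2, Itga3, Itgb4 and Itgb6) and 0 higher, where 27.9% of all tested features passed in either direction, 13.3% were higher and 14.5% lower. In depleted tumours 6 of 7 were lower, all but Itga1, and 0 higher, against 28.5% of features in either direction, 14.2% higher and 14.3% lower. At an unadjusted p under 0.05 and by DESeq2 the number that was higher was also 0 in both treatments. The median log2 fold change of the 7 genes was -0.57 in control and -1.05 in depleted tumours, and that of all features was -0.01 and 0.01. The difference between the EpCAM contrasts of the treatments passed for 3 of 7, with Itga3 and Itgb8 above 0 and Itgb6 below it, against 18.0% of features (8.69% above and 9.33% below).

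**Figure D1:**
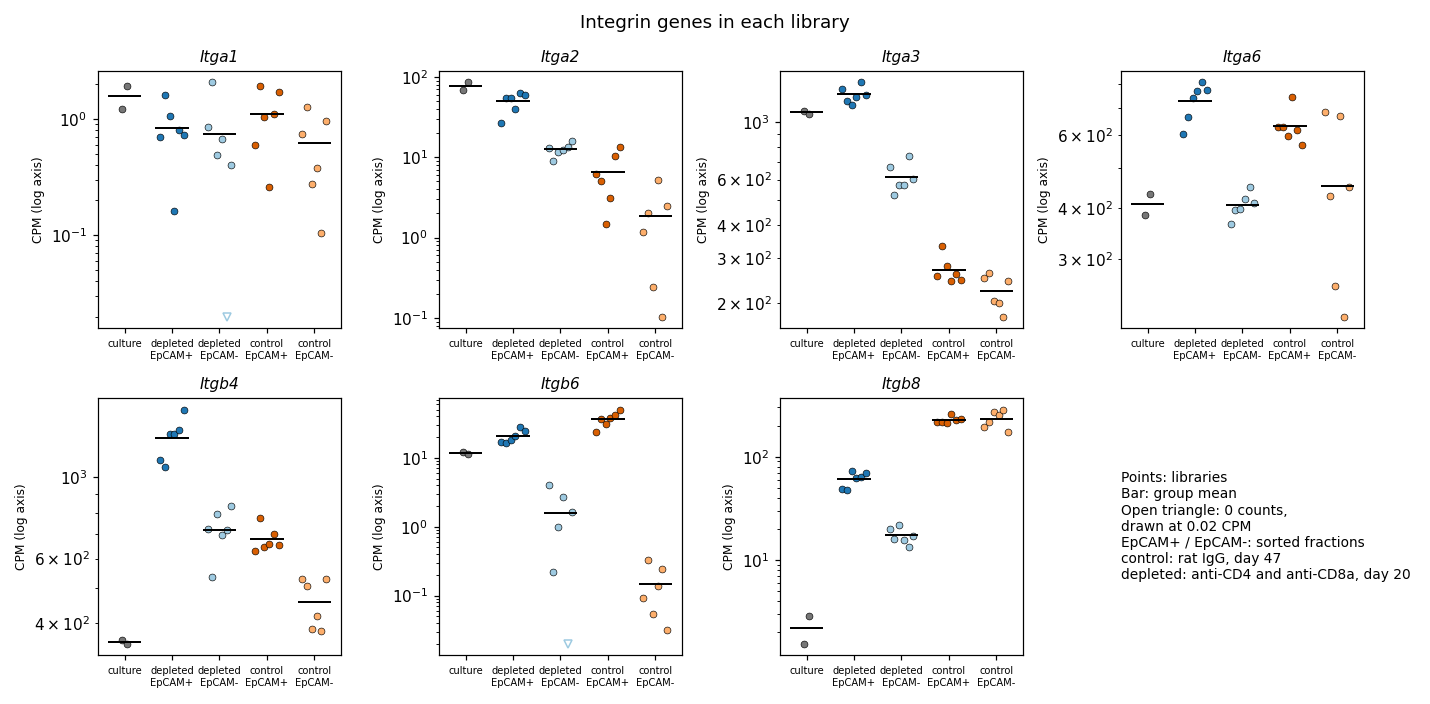
Level of each integrin gene in every library, in CPM on a log axis that differs in range between panels. Points are libraries (2 of culture, 6 of each tumour group), bars are group means, and open triangles are libraries with 0 counts. Itgb8 lies at 174 to 285 CPM in both control fractions, while Itgb6 is at 23.8 to 49.9 CPM in the positive and under 0.4 CPM in the negative one.

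Between treatments, Itga2, Itga3 and Itgb4 were lower in control tumours in both fractions, and Itgb8 was higher in both. In EpCAM-positive cells 4 of 7 differed between control and depleted tumours, 3 lower and 1 higher in control, against 40.0% of features (17.6% lower and 22.4% higher). In EpCAM-negative cells 5 of 7 differed, Itgb6 being the other lower one, against 45.1% of features (21.9% lower and 23.2% higher). These shares of all features are high, and the counts of members called are small, so each gene is described by its own size of change below. Of the 12 epithelial markers, 7 were lower and 1 higher in control than in depleted EpCAM-positive cells, and 9 were lower and 1 higher in the negative fraction, beside the lower Itga2, Itga3 and Itgb4. Their part in these results was not tested.

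Itga2 encodes the alpha-2 chain of a collagen receptor that is abundant on mammary epithelium. It was 68.3 and 85.1 CPM in the 2 cultures. In depleted tumours the lowest, median and highest level was 26.8, 54.8 and 62.6 CPM in EpCAM-positive and 8.94, 12.7 and 16.0 CPM in EpCAM-negative libraries. In control tumours the same values were 1.48, 5.63 and 13.2 CPM in the positive and 0.104, 1.59 and 5.21 CPM in the negative fraction. The 2 fractions of depleted tumours did not overlap, and those of control tumours did. Itga2 was lower in EpCAM-negative cells by a log2 fold change of -1.98 ± 0.48 in depleted (adjusted p = 0.00238) and -1.82 ± 0.51 in control tumours (adjusted p = 0.00889). With only the control groups in the fit the latter did not pass (adjusted p = 0.0713), and without control EpCAM-negative library 4, the highest of its group, it was -2.44. The contrasts of the treatments differed by 0.16 ± 0.70, an interval of ±2 SE from -1.24 to 1.55.

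The larger change of Itga2 was between treatments. Control tumours were lower by -2.92 ± 0.50 in the positive (adjusted p = 3.35e-05) and -2.76 ± 0.52 in the negative fraction (adjusted p = 9.88e-05), or 7.57-fold and 6.79-fold. Every control EpCAM-positive library lay below every depleted EpCAM-positive library, and the same held between the EpCAM-negative groups. Without control EpCAM-negative library 4 the change in EpCAM-negative cells was -3.38. Against culture, depleted EpCAM-positive cells did not pass (-0.63 ± 0.62, adjusted p = 0.451), and the other 3 groups were lower, down to -5.37 ± 0.62 in control EpCAM-negative cells (-5.99 without their library 4).

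Itga1, the alpha chain of the other collagen receptor of the set, is better known from mesenchymal and immune cells. Its median was 0.763 CPM in depleted EpCAM-positive, 0.579 in depleted EpCAM-negative, 1.06 in control EpCAM-positive and 0.559 CPM in control EpCAM-negative libraries, with 1.22 and 1.92 CPM in culture. All 5 groups overlapped. Depleted EpCAM-negative library 5 had 0 counts, which allows up to 0.119 CPM at 3 counts. None of the 9 comparisons passed, by edgeR, by DESeq2 or at an unadjusted p under 0.05, and the interval of ±2 SE for the EpCAM contrast ran from -2.14 to 0.51 in control and from -1.53 to 1.17 in depleted tumours. With SEs of 0.66 in control and 0.67 in depleted tumours, a change of less than 2 SE in either direction could not have been reliably detected. Itga1 shares 685 of its exon bases (3.68%) with an overlapping gene on the same strand, Gm49395, that was not analysed here.

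The ratio of Itga2 to Itga1 counts differed between groups, with no test of its own. Its median was 50.2 in culture, 65.2 in depleted EpCAM-positive, 18.5 in depleted EpCAM-negative (5 libraries with Itga1 counts), 8.57 in control EpCAM-positive and 1.59 in control EpCAM-negative libraries. Per kilobase of exon, alpha-2 RNA exceeded alpha-1 RNA in every library where both were read, with the lowest ratio, 2.35, in control EpCAM-negative library 3. That library had 9 counts of Itga2 and 10 of Itga1.

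Itga3 encodes the alpha chain of alpha-3 beta-1, a receptor for laminins of the basement membrane. It was 1073 and 1105 CPM in culture. Depleted libraries had a lowest, median and highest level of 1166, 1265 and 1421 CPM in EpCAM-positive and 525, 590 and 742 CPM in EpCAM-negative cells. Control libraries had 244, 257 and 333 CPM in the positive and 178, 225 and 263 CPM in the negative fraction. The depleted fractions were apart from each other and from both control groups, and the control fractions overlapped.

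The EpCAM contrast of Itga3 was -1.05 ± 0.10 in depleted tumours (adjusted p = 5.57e-09) and -0.27 ± 0.10 in control tumours (adjusted p = 0.038). The second call is a weak one. It was lost with no filter on low counts (adjusted p = 0.0594) and when control EpCAM-positive library 2 (adjusted p = 0.0933) or control EpCAM-negative library 3 (0.0794), 4 (0.083) or 5 (0.106) was left out. The difference between the contrasts was 0.78 ± 0.14 (adjusted p = 0.000176). Control tumours were lower than depleted tumours by -2.24 ± 0.10 in the positive (adjusted p = 6.98e-15, 4.74-fold) and -1.46 ± 0.10 in the negative fraction (adjusted p = 5.97e-12, 2.75-fold). Depleted EpCAM-positive cells did not differ from culture past the threshold (0.23 ± 0.14, adjusted p = 0.195), and control cells were 4.04-fold lower than culture in the positive and 4.87-fold lower in the negative fraction.

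Itga6 and Itgb4 encode the chains of alpha-6 beta-4, the laminin receptor of the hemidesmosome. The alpha-6 chain also pairs with beta-1, whereas beta-4 is known only as a partner of alpha-6. Itga6 was 385 and 432 CPM in culture. Its lowest, median and highest level was 604, 754 and 806 CPM in depleted EpCAM-positive, 366, 405 and 449 in depleted EpCAM-negative and 569, 623 and 743 in control EpCAM-positive libraries. Control EpCAM-negative libraries were spread more widely, at 218, 438 and 685 CPM, and overlapped every other group. The depleted fractions did not overlap.

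Itga6 was lower in EpCAM-negative cells of depleted tumours by -0.84 ± 0.19 (adjusted p = 0.00103). The same contrast in control tumours was -0.48 ± 0.18 (adjusted p = 0.0526) and did not pass. It did with DESeq2 (adjusted p = 0.0236), with RLE size factors (0.0401) and without control EpCAM-positive library 3 (0.0496) or 6 (0.0462) or control EpCAM-negative library 1 (0.00586) or 4 (0.0104), the last 2 being those at 685 and 669 CPM. With the replicate number taken as the tumour in a block, edgeR's contrast in control tumours was -0.62 and passed (adjusted p = 0.00678). The labels do not say that a number marks a tumour. In the main fit the contrasts of the treatments differed by 0.35 ± 0.26 (adjusted p = 0.398). Between treatments Itga6 was the member with the smallest change, -0.20 ± 0.18 in the positive and 0.15 ± 0.18 in the negative fraction. Intervals of ±2 SE ran from -0.57 to 0.16 and from -0.22 to 0.52, so a change of 1 on the log2 scale lies outside both. With only the EpCAM-positive groups in the fit the former passed, at -0.22 (adjusted p = 0.0429).

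Itgb4 was 351 and 360 CPM in culture, below all tumour libraries. The lowest, median and highest level was 1069, 1311 and 1530 CPM in depleted EpCAM-positive, 535, 720 and 834 in depleted EpCAM-negative, 628, 657 and 773 in control EpCAM-positive and 381, 462 and 528 CPM in control EpCAM-negative libraries. Within each treatment the fractions were apart. The beta-4 gene was lower in EpCAM-negative cells by -0.84 ± 0.10 in depleted (adjusted p = 5.88e-07) and -0.57 ± 0.10 in control tumours (adjusted p = 0.000161), and these contrasts differed by 0.27 ± 0.15 (adjusted p = 0.22). Control tumours were lower by -0.92 ± 0.10 in the positive (adjusted p = 8.97e-08) and -0.65 ± 0.10 in the negative fraction (adjusted p = 1.3e-05). Itgb4 shares 537 of its exon bases (7.66%) with B230344G16Rik on the opposite strand, a gene with 156 counts in all 26 libraries together.

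The ratio of the 2 chains of alpha-6 beta-4 was lower in control than in depleted EpCAM-positive cells. Counts of Itgb4 per count of Itga6 had a median of 0.874 in culture, 1.74 in depleted EpCAM-positive, 1.82 in depleted EpCAM-negative, 1.11 in control EpCAM-positive and 1.18 in control EpCAM-negative libraries. The positive groups did not overlap, with 1.60 to 1.98 in depleted and 0.886 to 1.23 in control libraries. In control EpCAM-negative libraries the ratio ran from 0.626 to 1.75, lowest in libraries 4 and 1 where Itga6 was highest. No test was made of these ratios.

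RefSeq promoter windows, 250 bases before to 50 bases after a start on the build GRCm38.p6, were given for 5 of the 7 genes (7 windows), and none for Itga6 and Itgb4. The 4 motifs searched on both strands were CACCTG (the E-box bound by Zeb and Snail repressors), TGANTCA (AP-1), GGAATG (TEAD) and AACCGGTT (grainyhead-like factors), and they occurred in 20.2%, 7.8%, 14.7% and 0.1% of all 32851 windows of the table. CACCTG or its complement CAGGTG was found once each for Itga3, Itgb6 and Itgb8. The 60 bases around each match are shown because Itgb6 and Itgb8 part in control tumours and Itga3 differs most between treatments among the laminin receptor chains. Capitals mark the motif, and all 3 are read 5′ to 3′ along the gene, on the minus strand.
Itgb6, chr2:60673721-60673780, second start, 60 bases upstream: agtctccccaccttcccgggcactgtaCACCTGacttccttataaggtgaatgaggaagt
Itgb8, chr12:119238306-119238365, 62 bases upstream: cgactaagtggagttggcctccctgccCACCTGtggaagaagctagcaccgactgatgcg
Itga3, chr11:95076877-95076936, first start, 195 bases upstream: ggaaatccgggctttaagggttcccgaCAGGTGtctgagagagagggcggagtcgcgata
The windows of Itga1 and Itga2 and the first start of Itgb6 held none of the 4 motifs, and the second start of Itga3 held 1 TGANTCA, 12 bases after the start. A match is a description of letters in a window that 20.2% of windows share, and binding was not measured.

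Itgb6 encodes the beta chain of alpha-v beta-6. It was 11.4 and 12.2 CPM in culture. Depleted EpCAM-positive libraries had 16.6, 19.5 and 27.8 CPM (lowest, median, highest) and control EpCAM-positive libraries 23.8, 37.0 and 49.9 CPM. The negative fractions were at 0, 1.32 and 4.05 CPM in depleted and at 0.0322, 0.115 and 0.334 CPM in control tumours. No EpCAM-negative library of either treatment reached the lowest EpCAM-positive one, and the 2 positive groups overlapped.

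Of the 7 genes, Itgb6 had the largest EpCAM contrast in both treatments, -7.90 ± 0.62 in control (adjusted p = 2.64e-10) and -3.73 ± 0.48 in depleted tumours (adjusted p = 1.05e-06). In control tumours it had 7048 counts over the 6 EpCAM-positive and 29 counts over the 6 EpCAM-negative libraries, a 243-fold ratio with a counting interval (95%) of 169 to 363. These 29 counts were 3, 12, 2, 4, 7 and 1 in libraries 1 to 6. The interval covers counting error only, since reads amplified by PCR are not independent molecules. In depleted tumours the sums were 2598 and 188 counts, a 14.1-fold ratio (12.1 to 16.4). The difference between the contrasts was -4.17 ± 0.77 (adjusted p = 0.000337).

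Itgb6 was low in the negative fractions beside the sorted antigen. Relative to the mean of the positive fraction, EpCAM-negative libraries of depleted tumours kept on average 5.76% of Epcam (1.64% to 11.6%) and 7.70% of Itgb6 (0% to 19.5%). Those of control tumours kept 0.138% of Epcam (0.0899% to 0.202%) and 0.404% of Itgb6 (0.0871% to 0.905%). Epcam defines the fractions and is no independent result. Means of the other members were 25.4% for Itga2, 28.4% for Itgb8, 48.2% for Itga3, 55.9% for Itgb4, 56.0% for Itga6 and 88.3% for Itga1 in depleted tumours. In control tumours these means were 28.5% for Itga2, 56.3% for Itga1, 67.6% for Itgb4, 71.6% for Itga6, 82.9% for Itga3 and 103% for Itgb8. The control mean of Itga2 rests on library 4 (79.5%), without which it was 18.3%, and libraries 3 and 5 were at 3.75% and 1.59%. Itga1 ran from 0% to 244% in depleted libraries, and without library 2 its mean was 57.1%. How many EpCAM-positive cells the negative fractions held was not tested.

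**Figure D2:**
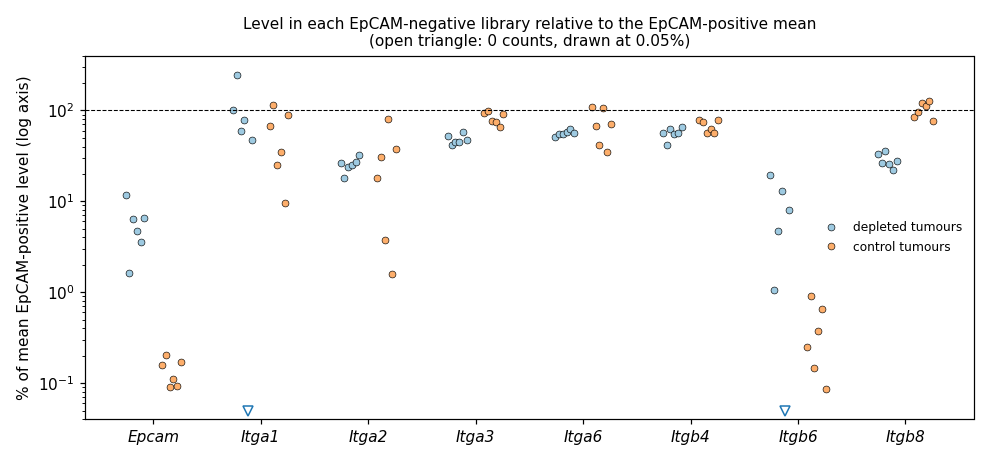
Level of Epcam and of each integrin gene in every EpCAM-negative library as a percentage of the mean of the 6 EpCAM-positive libraries of that treatment, on a log axis. Open triangles are libraries with 0 counts and the dashed line marks 100%. Itgb6 lies near Epcam in both treatments, and Itgb8 moves from a mean of 28.4% in depleted to 103% in control tumours.

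Between treatments Itgb6 changed in the negative fraction. It was lower in control than in depleted EpCAM-negative cells by -3.35 ± 0.65 (adjusted p = 0.000132), and these groups overlapped because depleted library 5 had 0 counts and library 2 only 5. In EpCAM-positive cells the difference was 0.82 ± 0.41 (adjusted p = 0.115). With only those groups in the fit it was 0.81 and passed (adjusted p = 0.00136). Control EpCAM-positive cells were above culture by 1.65 ± 0.64 (adjusted p = 0.0348), a call that DESeq2 did not make (adjusted p = 0.0867) and that was lost without either culture library (adjusted p = 0.151 and 0.176) or without control EpCAM-positive library 5 (0.0552) or 6 (0.052).

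Itgb8, the beta chain of alpha-v beta-8, is known from neural, immune and some epithelial and mesenchymal cells. It was 1.54 and 2.87 CPM in culture. Depleted libraries had a lowest, median and highest level of 48.0, 62.9 and 72.5 CPM in EpCAM-positive and 13.4, 16.4 and 21.6 CPM in EpCAM-negative cells. Control libraries had 210, 222 and 258 CPM in the positive and 174, 235 and 285 CPM in the negative fraction. The control fractions overlapped throughout, and both stood above every depleted library.

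In depleted tumours Itgb8 was lower in EpCAM-negative cells by -1.82 ± 0.14 (adjusted p = 4.05e-10). In control tumours the contrast was 0.04 ± 0.13 (adjusted p = 0.886), with an interval of ±2 SE from -0.23 to 0.31. The contrasts differed by 1.86 ± 0.20 (adjusted p = 2.33e-07), the opposite sign to Itgb6. Control tumours were higher than depleted tumours by 1.89 ± 0.14 in the positive (adjusted p = 5.42e-11, 3.72-fold) and 3.75 ± 0.15 in the negative fraction (adjusted p = 1.04e-15, 13.5-fold). All 4 tumour groups were above culture, by 4.77 ± 0.27 and 2.95 ± 0.25 in the depleted positive and negative fractions and by 6.66 ± 0.30 and 6.70 ± 0.30 in the control ones.

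Summed levels of cell type markers also differed between the groups in which Itgb8 differed. The summed level of the fibroblast list was 1209 to 3184 CPM in control EpCAM-positive and 1287 to 5042 CPM in control EpCAM-negative libraries, against 63.4 to 184 and 149 to 221 CPM in the depleted ones and 16.0 to 18.2 CPM in culture. All 8 of its markers were detected in the tumour groups, and Dpt and Fap were at 0 in culture. Dcn alone averaged 1899 ± 583 and 1316 ± 499 CPM in the control positive and negative groups. The pericyte and smooth muscle list summed to 16.2 to 121 CPM in depleted and 295 to 1687 CPM in control libraries, but its members did not move alike. Of 7 tested, 4 were higher and 2 lower in control than in depleted EpCAM-positive cells. In EpCAM-negative cells 2 were higher and 2 lower. Of all features 22.4% were higher and 17.6% lower in the positive, and 23.2% higher and 21.9% lower in the negative fraction. Thy1, which encodes the CD90 used to exclude cells in the sort, had 0 counts over the control EpCAM-negative libraries, 2 over the control EpCAM-positive, 5 over the depleted EpCAM-negative and 3 over the depleted EpCAM-positive ones. Macrophage markers were 18.3 to 35.2 CPM in control EpCAM-negative and 92.9 to 270 CPM in depleted EpCAM-negative libraries. The 8 markers of mesenchymal tumour cells summed to 8870 to 14701 CPM in control and 6785 to 9099 CPM in depleted EpCAM-positive libraries. In EpCAM-negative libraries they summed to 22393 to 38349 and 15018 to 21873 CPM. In control cells 5 of these 8 were higher and 1 lower in the positive, and 4 higher and 2 lower in the negative fraction, beside the same shares of all features. The part of these markers in the result for Itgb8 was not tested.

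**Figure D3:**
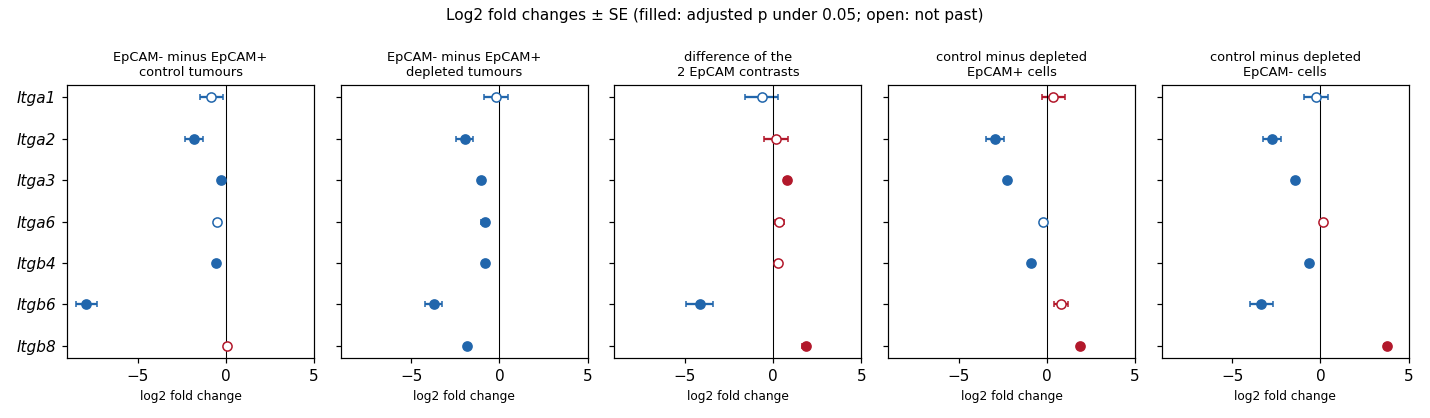
Log2 fold change ± SE of the 7 genes in the EpCAM contrast of each treatment, in the difference between these contrasts and between treatments in each fraction (edgeR's quasi-likelihood test). Filled points passed an adjusted p of 0.05, blue is below 0 and red above. Itgb6 and Itgb8 lie on opposite sides of 0 in the difference, at -4.17 and 1.86.

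Which of the beta chains Itgb6 and Itgb8 was read more often differed between groups. Counts of Itgb6 per count of Itgb8 had a median of 5.94 in culture, 0.348 in depleted EpCAM-positive, 0.160 in control EpCAM-positive, 0.0719 in depleted EpCAM-negative and 0.000513 in control EpCAM-negative libraries. Both cultures were above 1 (3.97 and 7.92), and all 24 tumour libraries were below it. Per kilobase of exon the medians were 9.25 in culture and 0.541, 0.249, 0.112 and 0.000798 in the tumour groups in the same order, so the order of the 2 chains is the same. These ratios have no test of their own, and they leave out other beta chains that pair with alpha-v. Itgb5 averaged 59.1 CPM per kb in culture. It averaged 120 and 127 in depleted positive and negative and 150 and 161 in control positive and negative libraries. Itgb3 averaged 0.0184 CPM per kb in culture and 23.4, 18.5, 12.3 and 19.6 in the same tumour groups.

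**Figure D4:**
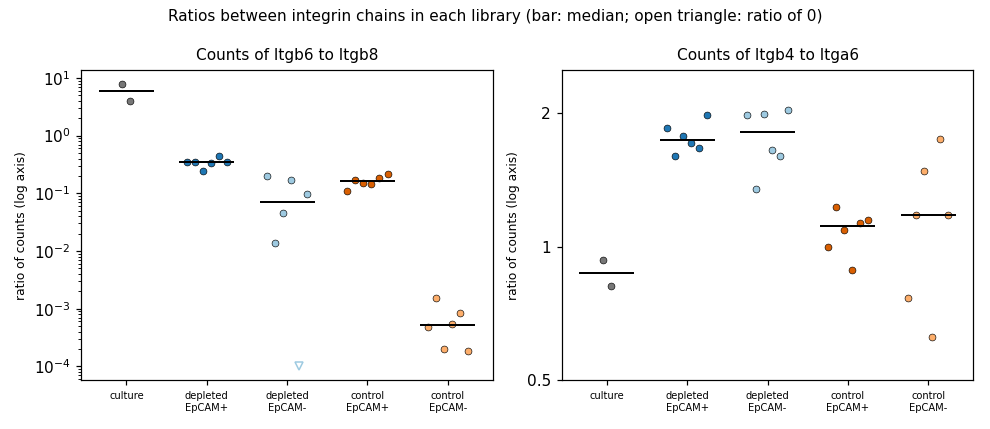
Ratio of counts of Itgb6 to Itgb8 (left) and of Itgb4 to Itga6 (right) in every library, on log axes, with bars at the group medians and an open triangle for a ratio of 0. The Itgb6 to Itgb8 ratio falls from 3.97 and 7.92 in culture to under 0.002 in control EpCAM-negative libraries, and the Itgb4 to Itga6 ratio of EpCAM-positive libraries is 1.60 to 1.98 in depleted and 0.886 to 1.23 in control tumours.

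The partner chains Itgav and Itgb1 were abundant in every group. Itgav, the alpha-v chain, averaged 300 ± 64.7 CPM in culture (n = 2), 488 ± 72.0 and 489 ± 77.1 CPM in depleted positive and negative, and 405 ± 41.0 and 515 ± 28.9 CPM in control positive and negative libraries. It was higher in EpCAM-negative cells of control tumours by 0.35 ± 0.11 (adjusted p = 0.0156) and differed by 0.00 ± 0.11 in depleted ones. Itgb1, the partner of alpha-1, alpha-2, alpha-3 and alpha-6, averaged 2652 ± 200 and 2512 ± 192 CPM in the depleted and 1617 ± 58.6 and 1956 ± 103 CPM in the control fractions. It was lower in control than in depleted cells by -0.71 ± 0.06 in the positive (adjusted p = 4.29e-10) and -0.36 ± 0.06 in the negative fraction (adjusted p = 1.58e-05). Itga2, Itga3 and Itgb4 were lower in the same comparisons. Between fractions, Itgb1 was higher in EpCAM-negative cells of control tumours by 0.27 ± 0.06 (adjusted p = 0.000859), where Itga2 and Itga3 were lower. In depleted tumours Itgb1 differed by -0.08 ± 0.06 (adjusted p = 0.366).

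Compared per kilobase of exon, the laminin receptor chains Itga3, Itga6 and Itgb4 were the most abundant members in every group. In depleted EpCAM-positive cells the order was Itga3 (224 ± 16.1 CPM per kb), Itgb4 (183 ± 23.9), Itga6 (80.5 ± 8.47), Itga2 (6.94 ± 1.91), Itgb8 (5.49 ± 0.941), Itgb6 (2.93 ± 0.632) and Itga1 (0.0452 ± 0.0257). In control EpCAM-positive cells it was Itgb4 (96.4 ± 7.51 CPM per kb), Itga6 (69.8 ± 6.62), Itga3 (47.2 ± 5.88), Itgb8 (20.4 ± 1.58), Itgb6 (5.19 ± 1.26), Itga2 (0.918 ± 0.62) and Itga1 (0.0591 ± 0.034). Itga3 thus stood the highest in depleted EpCAM-positive cells and below Itgb4 and Itga6 in control EpCAM-positive cells. In depleted EpCAM-negative cells Itga3 (108 ± 13.9 CPM per kb) and Itgb4 (102 ± 14.7) did not differ beyond their spread, nor did Itga2 (1.77 ± 0.324) and Itgb8 (1.56 ± 0.274). In control EpCAM-negative cells the spread of Itga6 (50.0 ± 21.8 CPM per kb) covered both Itgb4 (65.2 ± 10.0) and Itga3 (39.1 ± 5.91), and Itgb6 (0.021 ± 0.0165) was the lowest, below Itga1 (0.0333 ± 0.0238) by less than their spread.

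In culture Itga3 was at 191 ± 3.94 CPM per kb (n = 2), Itgb4 at 50.7 ± 0.831, Itga6 at 45.3 ± 3.68, Itga2 at 10.7 ± 1.67, Itgb6 at 1.66 ± 0.0791, Itgb8 at 0.199 ± 0.0849 and Itga1 at 0.0844 ± 0.0267. Against culture, 3 of 7 genes passed in depleted EpCAM-positive cells, 3 higher and 0 lower, where 39.5% of features passed (20.9% higher and 18.6% lower). In depleted EpCAM-negative cells 5 passed, 2 higher and 3 lower (42.4% of features, 21.8% higher and 20.6% lower). In control EpCAM-positive cells 5 passed, 3 higher and 2 lower (50.2%, 27.8% higher and 22.4% lower), and in control EpCAM-negative cells 5, 2 higher and 3 lower (50.7%, 26.5% higher and 24.2% lower). With only the groups compared, 5 passed in depleted EpCAM-positive cells, adding Itga2 (adjusted p = 0.0443) and Itgb6 (0.00877). In that fit 6670 of 13998 features passed, against 6570 of 16637 in the main fit. Itgb4 and Itgb8 were higher than culture in all 4. Itgb4 rose by 1.85 ± 0.17 and 1.01 ± 0.16 in the depleted positive and negative fractions, by 0.93 ± 0.16 in control EpCAM-positive and by 0.36 ± 0.15 in control EpCAM-negative cells (adjusted p = 0.0463). The last of these was lost with RLE size factors (adjusted p = 0.0565), with no filter (0.0879), with only the groups compared (0.0724) and without either culture (0.159 and 0.243) or control EpCAM-negative library 1 (0.145), 2 (0.134) or 6 (0.0841). Itga6 was higher in depleted EpCAM-positive cells by 0.83 ± 0.27 (adjusted p = 0.0174), a call lost without either culture library (adjusted p = 0.159 and 0.0887). In control EpCAM-positive cells it did not pass (0.63 ± 0.27, adjusted p = 0.0568), and did with DESeq2 (0.0328), with only the groups compared (0.00136) and without library 6 of that group (0.0455). With only 2 cultures, which may be technical replicates, these tests rest on a spread shared with the tumour groups.

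Genes with the most similar course over the 26 libraries were found by the mean absolute difference of centred log2 CPM. For Itgb6 they included Fam83b (0.543) and Nectin4 (0.763), which encodes an adhesion molecule, and Fam83b averaged 36.7 CPM in control EpCAM-positive and 0.0967 CPM in control EpCAM-negative cells. For Itgb8 they were Plekhb1 (0.4), Pcolce (0.441), an enhancer of procollagen processing, and Emb (0.454), and Pcolce rose from 3.65 CPM in culture to 185 and 218 CPM in control positive and negative cells. Itga6 was most like Jup (0.21), which encodes plakoglobin, Ephb4 (0.217) and Hip1r (0.222), and Itgb4 most like Erlin2 (0.196), Efna4 (0.203) and Irs1 (0.213). Itga3 was closest to Pcyt1b (0.263), M1ap (0.271) and Tmeff1 (0.273), and Itga2 to Csta1 (0.789), Sh2d5 (0.82) and Sh2d1b2 (0.874). The values of Itga1 (Gm44053 at 0.695, Kansl2-ps at 0.729 and Nsa2 at 0.73) are distances between low counts. The measure is a description, and all libraries of a group share their treatment, fraction and depth.

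Counts called in the gene lists from here on stand beside the shares of all tested features. In the EpCAM contrast 13.3% were higher and 14.5% lower in control, and 14.2% higher and 14.3% lower in depleted tumours. The lists are short and had no set test, so their counts are not results about a list. The laminin chains, ligands of Itga3, Itga6 and Itgb4, differed between fractions for 6 of 11 genes in control tumours, 4 of them lower and 2 higher in EpCAM-negative cells, and for 5 in depleted tumours, all 5 lower. Lama3 and Lamb3, chains of epithelial laminin, were among those lower in both. Lama3 averaged 964 ± 192 and 105 ± 37.7 CPM in the depleted positive and negative fractions and 247 ± 32.6 and 42.7 ± 23.0 CPM in the control ones, and was lower in the negative fraction by -3.20 ± 0.29 and -2.53 ± 0.29. Lamb3 was lower by -0.65 ± 0.11 and -0.69 ± 0.11. Lama3 was also lower in control than in depleted EpCAM-positive cells, by -1.96 ± 0.28, as Itga3 was, while Lamb3 was not past the threshold (0.15 ± 0.11). Lamb1, a beta chain of other laminins, was lower there by -1.59 ± 0.13. Lamc1, a chain of most other laminins, was higher in EpCAM-negative cells of control tumours by 1.23 ± 0.13, and Lama4 rose between depleted and control tumours, from 4.33 ± 1.92 to 46.8 ± 13.3 CPM in the positive and from 2.33 ± 2.01 to 78.2 ± 28.1 CPM in the negative fraction.

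**Figure D5:**
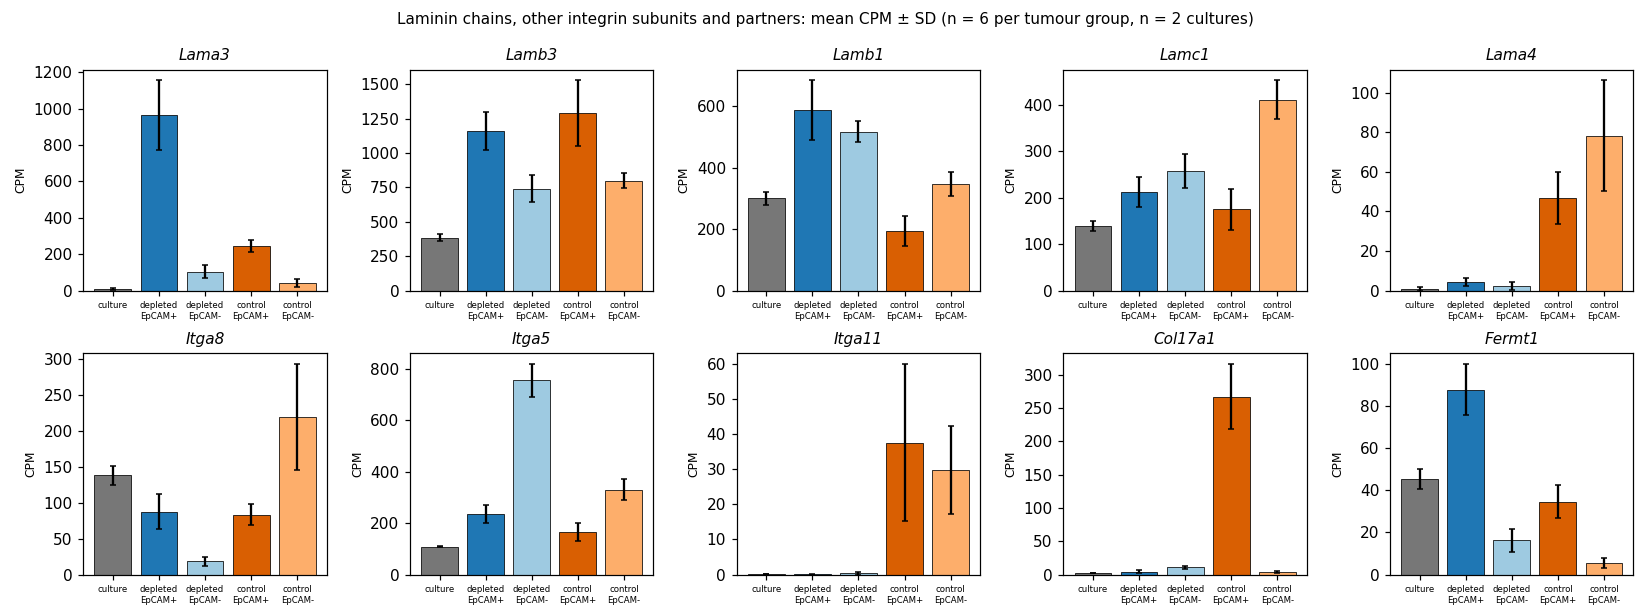
Mean CPM ± SD of 5 laminin chains, 3 other integrin alpha chains, Col17a1 and Fermt1 in culture (n = 2) and the 4 tumour groups (n = 6 each), on linear axes from 0. Lama3 peaks in depleted EpCAM-positive cells at 964 CPM, and Col17a1 stands at 267 CPM in control EpCAM-positive cells and under 11 CPM elsewhere.

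In EpCAM-negative cells of control tumours 5 of 11 collagen chains that bind alpha-1 or alpha-2 integrins were higher and 1 lower (1 and 2 in depleted ones). Against depleted tumours, control tumours were higher for 5 and lower for 1 in EpCAM-positive cells, and higher for 5 and lower for 0 in EpCAM-negative cells, where Itga2 was lower. Of all features 22.4% were higher and 17.6% lower in the positive, and 23.2% higher and 21.9% lower in the negative fraction. Col1a1, the main fibrillar chain, rose from 34.8 ± 16.0 to 1544 ± 669 CPM between EpCAM-negative groups (5.47 ± 0.43), and the basement membrane chain Col4a6 from 52.4 ± 12.6 to 629 ± 84.3 CPM (3.59 ± 0.19). Col1a2, the partner of Col1a1 in type I collagen, did not rise, at 19.6 ± 6.73 CPM in depleted and 13.4 ± 9.39 CPM in control EpCAM-negative cells. Col1a1 is also one of the fibroblast markers, which rose in the same comparison, and their part in the result was not tested. Of the non-integrin receptors of the same ligands, 4 of 7 were lower and 1 higher in the negative fraction of control tumours, and 5 lower in that of depleted tumours. Bcam, a receptor of laminin alpha-5, was lower by -4.62 ± 0.47 and -4.30 ± 0.49, and the collagen receptor kinase Ddr1 by -0.71 ± 0.09 and -0.39 ± 0.09.

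Of 4 other hemidesmosome genes tested, the negative fraction was lower for 1 in control tumours and higher for 2 in depleted ones. Col17a1, a transmembrane collagen that binds beta-4 in the hemidesmosome, was 267 ± 49.0 CPM in control EpCAM-positive and 4.2 ± 1.7 CPM in control EpCAM-negative cells (-5.99 ± 0.30, adjusted p = 9.03e-14). In depleted tumours it was 4.40 ± 2.23 and 10.7 ± 2.45 CPM (1.29 ± 0.27, adjusted p = 0.000564). Plec, the plectin gene that links beta-4 to keratin, was lower in control tumours by -0.72 ± 0.15 in the positive and -0.97 ± 0.15 in the negative fraction, as was Dst by -0.31 ± 0.11 and -0.47 ± 0.11. The 8 basal and myoepithelial markers, all detected, summed to 2876 to 3498 CPM in control EpCAM-positive libraries, 236 to 391 in control EpCAM-negative, 1430 to 1838 in depleted EpCAM-positive and 430 to 667 CPM in depleted EpCAM-negative libraries. Their part in the level of Col17a1 was not tested.

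In EpCAM-negative cells of control tumours 7 of 18 other integrin subunits tested were higher and 2 lower, with a median of 0.19, and in depleted ones 4 and 1, with a median of 0.20. Itga5, the fibronectin receptor chain, was higher by 1.01 ± 0.12 in control and 1.69 ± 0.12 in depleted tumours. Itga8, a chain of another RGD receptor, had opposite contrasts, 1.39 ± 0.22 in control and -2.25 ± 0.23 in depleted tumours, and was 219 ± 73.5 and 18.3 ± 6.20 CPM in the 2 negative groups. Itga11, the alpha chain of a collagen receptor of fibroblasts, averaged 37.5 ± 22.4 and 29.7 ± 12.5 CPM in control positive and negative cells and under 0.4 CPM in depleted cells and culture, while Itga2 was lower in control. The fibroblast markers were higher in the same groups, and their part in the level of Itga11 was not tested. Itgb2, the leukocyte beta chain, was 59.1 ± 1.19 CPM in culture and 4.51 ± 1.80 CPM in control EpCAM-positive cells.

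In EpCAM-negative cells of control tumours 4 of 9 genes of the latent TGF-beta axis, on which alpha-v beta-6 and alpha-v beta-8 act, were higher and 4 lower (4 and 2 in depleted ones). Tgfb3, which has the RGD sequence in its latency peptide, rose in control against depleted tumours by 0.62 ± 0.10 and 1.05 ± 0.10 in the positive and negative fractions, the direction of Itgb8. Tgfb2, whose latency peptide lacks it, rose from 1.15 ± 0.429 to 26.4 ± 10.8 CPM between negative groups (4.51 ± 0.44). Ltbp1, a binding protein that anchors the latent complex, was lower by -2.23 ± 0.17 in the same comparison, and Ltbp3 higher by 0.96 ± 0.11. Nrros, a myeloid anchor of latent TGF-beta, was 0.0149 ± 0.0254 CPM in control EpCAM-negative and 1.83 ± 0.652 CPM in depleted EpCAM-negative cells. Macrophage markers summed to 18.3 to 35.2 CPM and 92.9 to 270 CPM in the same groups, and their part in it was not tested. Of 7 RGD ligands of alpha-v, the negative fraction of each treatment was higher for 4 and lower for 1, with Fn1 at 24333 ± 5591 CPM and Spp1, osteopontin, at 75554 ± 12045 CPM in control EpCAM-negative cells.

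In EpCAM-negative cells of control tumours 10 of 23 adaptors and adhesion kinases were higher and 3 lower (12 and 2 in depleted ones). Fermt1, the epithelial kindlin, was lower in both (-2.69 ± 0.26 and -2.44 ± 0.25), and Fermt2, the widely expressed kindlin, higher in both (0.63 ± 0.10 and 0.86 ± 0.10). Of 12 tetraspanins, membrane organisers that bind alpha-3 and alpha-6 integrins, 3 were higher and 4 lower in control and 2 and 2 in depleted tumours, and Tspan3 rose by 1.01 ± 0.14 and 1.35 ± 0.14 in control against depleted cells. Of 9 other basement membrane genes tested, the negative fraction was higher for 1 and lower for 2 in each treatment. These counts, and those of the tetraspanins in depleted tumours, are near the shares of all features (14.2% higher and 14.3% lower in depleted tumours). Npnt, nephronectin, a ligand of alpha-8 beta-1, was 12.7 ± 3.82 and 1.28 ± 0.929 CPM in the depleted positive and negative fractions and 0.997 ± 0.565 and 0.0696 ± 0.170 CPM in the control ones, and was called lower in the negative fraction of both.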

How the data were processed

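RNA from 26 samples was amplified from 0.1 to 1.0 ng with the SMARTer v4 kit by 10, 12 or 14 cycles of PCR and sequenced as single reads of 50 bases, per the labels' protocols. The cycles of each library were not given in the sources used here. The kit is not strand-specific and adds no molecular identifiers. The authors deposited raw read counts per gene, for which the submitters' processing notes list STAR and the build mm9. How reads were counted, and on which annotation, was not given in the sources used here. Reads of a gene and of one that overlaps it on the other strand are therefore indistinguishable. A second deposited table, on a log2-like scale, was not used, and the notes also list DESeq2 1.22.2.

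Of 47729 Ensembl identifiers, 47224 were matched to a symbol of GENCODE M21, whose exon lengths gave CPM per kb. M21 is on another build than the counts, so none of its coordinates are given, and those of the promoter windows are RefSeq's on GRCm38.p6. Counts were fitted with edgeR 4.0.16 (R 4.3.3): TMM scaling, filterByExpr by group (16637 features kept), 1 coefficient per group over all 26 libraries, the quasi-likelihood test and Benjamini-Hochberg adjustment over all tested features. The common biological coefficient of variation was 0.293. Groups were taken from the sample titles. No replicate pair differed by as little as sampling noise (lowest chi-square per gene 13.638). The culture replicates may be technical. The fit was tested on simulated data. Alternatives were DESeq2 1.42.0, RLE size factors, no filter, only the groups compared, a replicate block and leaving out each library.

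The 7 genes, the gene lists and the markers were chosen with earlier results of these data known. All 7 members, Itgav, Itgb1 and Epcam are named whatever their values, and of each list up to 4 genes with the smallest p in the EpCAM contrast of control tumours and up to 2 with the smallest p between treatments. Markers of a cell type are given as sums, with Dcn named after its values were seen. The 3 nearest genes are those with the smallest mean absolute difference of centred log2 CPM (prior count 2). Some genes that this rule or the nearest-gene rule selects are not reported here.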

Additional observations from a re-analysis of the deposited data

Results flagged for a closer look

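Itga6 in control EpCAM-positive library 4 stood apart, at 743 CPM where the other 5 libraries of that group had 569 to 630 CPM. Its gap was 0.648 of the group's range, above the critical value of 0.625 for 6 samples. Of 28 pairs of gene and tumour group examined this was the only 1, and chance alone flags about 1 in 20. The EpCAM contrast differed between treatments for Itga3 (log2 difference 0.78), for Itgb6 (-4.17) and for Itgb8 (1.86).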

How the results depend on the processing

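The number of integrin genes called kept within 1.5 times its value in every comparison and alternative run, except for depleted EpCAM-positive cells against culture, where 5 passed with only the groups compared and 3 with all groups in the fit. Of all features, 6670 of 13998 passed in the former fit and 6570 of 16637 in the latter. With the tumour as a replicate block, the EpCAM contrast of Itga6 in control tumours passed (-0.62, adjusted p = 0.00678). That of Itgb8 became -0.00243 and the difference between treatments for Itga2 -0.08. The block fit left out the cultures and tested 14485 features, where the main fit tested 16637. Features called were 4904 against 4634 in control, 5132 against 4738 in depleted tumours and 3405 against 2999 for the difference. The labels do not say that a number marks a tumour. Same-numbered fractions correlated by 0.05 to 0.172 in control and 0.017 to 0.047 in depleted tumours, and 4 of 6 control and 3 of 6 depleted libraries correlated best with their own number, a hint of pairing from the data and not from the design. Every other reversed sign came from leaving out 1 library and belongs to a value that did not pass: Itgb8 in control tumours ranged from -0.03 to 0.11, Itga1 in depleted tumours from -0.82 to 0.11, the difference for Itga2 from -0.46 to 0.47, control minus depleted EpCAM-negative cells from -0.59 to 0.38 for Itga1 and from -0.01 to 0.29 for Itga6, and, against culture, Itga6 of the depleted negative fraction from -0.09 to 0.04 and of the control one from -0.07 to 0.29. The cause was not tested. Itgb6 between the EpCAM-negative groups could not be given with only those groups, since the filter left it out. Low counts limit Itga1, and Itgb6 and Itga2 in control EpCAM-negative cells, where some libraries had 3 counts or fewer. Itgb6 also had 0 counts in depleted EpCAM-negative library 5.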

Other observations

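Within control EpCAM-negative cells the libraries differed among themselves for several members, a pattern chosen after its values were seen and not tested. Libraries 3 and 5 were the lowest for Itga6 (259 and 218 CPM) and for Itga2 (0.245 and 0.104 CPM) and the highest for Itgb8 (270 and 285 CPM). Libraries 1 and 4 were the highest for Itga6 (685 and 669 CPM), and library 4 also for Itga2 (5.21 CPM). Itgb4 was 506 to 528 CPM in libraries 1, 2 and 6 and 381 to 419 CPM in libraries 3, 4 and 5, so Itga6 and Itgb4, whose products form 1 receptor, did not rank these 6 libraries alike.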
